A study of Mus musculus with 8 samples.

Results

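Axon guidance molecules are secreted or membrane-bound ligands and the receptors that read them, and 68 genes of these families were followed in notochord-derived cells (NDCs) of the mouse between embryonic day 12.5 (E12.5) and birth (P0). The members were chosen by family name as the semaphorins with their plexin and neuropilin receptors, the Slits with Robo receptors, the netrins with Dcc and Unc5 receptors, and the ephrins with Eph receptors. They are 68 of the 43346 gene identifiers counted, 34 of them ligands and 34 receptors. All samples came from mice carrying Shh-cre and ROSA:YFP, in which YFP marks cells that express Shh and their descendants. At E12.5 whole notochords were dissected and put directly into TRIzol. At P0 nucleus pulposus (NP) cells of the thoracic and lumbar discs were shaken loose and sorted for YFP. Each stage had 4 litters and each sample pooled the animals of 1 litter, so a p-value weighs the stage difference against the spread between litters. Stage, axial region and isolation method cannot be told apart here, nor in bulk RNA can fewer cells of a type be told apart from less RNA per cell.

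These families were first studied in growing axons. Slits bind Robo receptors and repel, and netrins attract through Dcc or repel through Unc5 receptors. Semaphorins signal through plexins, with neuropilins as partners for most of the secreted class 3 proteins. Ephrins are held on the cell surface and signal to Eph tyrosine kinases on neighboring cells, and the receptor signal can also run back into the cell that carries the ephrin. Outside the nervous system the same molecules act in vessel growth, cell sorting at tissue boundaries and immune cells, and the notochord is itself a known source of guidance cues for nearby axons and neural crest.

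Gene counts summed to 4442775 to 7180221 reads in the E12.5 samples and 6371842 to 8904050 in the P0 samples, at which 3 counts equal 0.337 to 0.675 CPM, the count of a gene scaled to library size. The E12.5 litters are NDP10.2, NPD3, NPD4 and NPD9.2 and those of P0 are NPD26, NPD27, NPD28 and NPD30, and values by litter follow that order. The list of notochord and NP markers held 11 symbols, of which T and Tbxt name the same gene, and all 10 genes were found. T, the notochord transcription factor, was at 242 to 942 CPM at E12.5 and 574 to 2320 CPM at P0, whereas Noto was at or under 3 counts in every litter. Of the 9 markers tested, Krt19, Cd24a and Car3 were called higher at P0, Shh and Foxa1 lower, and 4 were not called. Shh was at 420 to 1350 CPM at E12.5 and 0.157 to 11.8 CPM at P0 (log2 fold change -7.14 ± 0.95, edgeR adjusted p = 0.000742). Markers of other cells moved with stage or with a litter. The summed level of 12 leukocyte genes was 63 to 128 CPM at E12.5 and 376 CPM in NPD30 but 3420 to 4250 CPM in the other P0 litters. Neural genes summed to 3390 CPM in NPD4 against 220 to 281 CPM in the other E12.5 litters, and to 1180, 745, 484 and 969 CPM in the P0 litters, each of which lay above the E12.5 litters other than NPD4. Sclerotome genes summed to 168 to 256 CPM at E12.5 and 14.9 to 31.3 CPM at P0, and osteoblast genes to 31.3 to 252 CPM and 1080 to 1870 CPM. The neural crest gene Sox10 was at 88.4 to 190 CPM at E12.5 and 1.77 to 19.2 CPM at P0. Reads that htseq-count set aside as ambiguous between genes made up 16.3% and 17.5% of the reads tallied in NDP10.2 and NPD9.2 and 7.1% to 11.6% elsewhere. Others were set aside for lying on no gene or aligning to several places. Reads counted on genes made up 22.6% and 24.6% in NDP10.2 and NPD9.2 and 30.9% to 34.8% elsewhere. What these differences contribute to the results below was not tested, except where values are given.

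To show the DNA in front of some of the genes on which the results turn, 250 bases are given for 4 members. They precede the RefSeq start on GRCm38.p6, which for Efna1 lies 191 bases inside the gene as Gencode marks it. Slit2 is the ligand with the largest difference in CPM, Efna4 and Efna1 lie near each other on chromosome 3 and differed in outcome, and Sema4f had higher abundance at P0. Each run is printed 5′ to 3′ toward its gene, and capitals mark the GC box GGGCGG or its reverse complement CCGCCC. Slit2 lies on the plus strand at chr5:47982905-47983154, and the others lie on the minus strand at chr3:89338029-89338278, chr3:89280952-89281201 and chr6:82939770-82940019.
Slit2: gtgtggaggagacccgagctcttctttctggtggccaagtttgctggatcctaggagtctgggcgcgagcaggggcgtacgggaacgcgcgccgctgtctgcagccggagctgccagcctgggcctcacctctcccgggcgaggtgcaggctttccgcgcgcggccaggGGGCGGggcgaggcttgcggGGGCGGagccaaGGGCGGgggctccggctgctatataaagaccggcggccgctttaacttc
Efna4: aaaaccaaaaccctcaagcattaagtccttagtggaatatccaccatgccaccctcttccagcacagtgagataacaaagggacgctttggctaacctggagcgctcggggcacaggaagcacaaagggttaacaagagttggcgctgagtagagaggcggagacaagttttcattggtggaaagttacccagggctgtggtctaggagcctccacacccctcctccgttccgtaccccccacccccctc
Efna1: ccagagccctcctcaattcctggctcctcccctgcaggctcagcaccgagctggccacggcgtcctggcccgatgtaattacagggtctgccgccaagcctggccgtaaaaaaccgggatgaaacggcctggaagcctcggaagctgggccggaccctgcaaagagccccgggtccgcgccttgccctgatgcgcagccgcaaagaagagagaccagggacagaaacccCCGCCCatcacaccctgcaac
Sema4f: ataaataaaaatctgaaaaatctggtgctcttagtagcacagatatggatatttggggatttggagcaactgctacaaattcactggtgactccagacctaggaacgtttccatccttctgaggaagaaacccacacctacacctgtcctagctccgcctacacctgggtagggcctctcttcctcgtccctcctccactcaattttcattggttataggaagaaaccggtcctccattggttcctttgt

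A RefSeq start was matched for 58 of the 68 members. The matched start lay far from the Gencode gene start for Robo1 (354843 bases), Sema3a (271370), Sema4d (37064) and Plxna2 (1611). For the others it lay at most 886 bases away. Windows of these distant starts are counted with the rest below. The GC box was present, on either strand, in 42 of these 58 windows (72.4%) and in 32.7% of all 32817 windows of this length. It was in 18 of 27 windows of members with lower abundance at P0 and in 4 of 6 of those with higher abundance. Slit2 holds 3 such boxes, Efna1 holds 1, and Efna4 and Sema4f hold none. The box of Efna1 lies in the part of its window that is inside the Gencode gene. The member windows were also richer in CG dinucleotides, with a median of 16 against 6 over all windows. The letters TGGGTGGTC for GLI, TGTTTAC for forkhead and GAGGAAGT for PU.1 were in no member window on either strand, and in 0.2%, 3.2% and 2.4% of all windows. These matches describe letters only.

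Most members that differed had lower abundance at P0. Among 66 members with enough counts to test, 31 (47.0%) were lower and 6 (9.1%) higher at P0 by edgeR's quasi-likelihood test at a Benjamini-Hochberg adjusted p under 0.05, and 29 were not called. Over all 15467 genes tested, 12.0% were lower and 16.0% higher by the same rule, and 27.9% differed in either direction. The median log2 fold change, P0 over E12.5, was -1.37 over the members and 0.04 over all genes. The P0 litters lay entirely below the E12.5 litters for 29 members (43.9%), as for 14.4% of all genes, and entirely above for 5 members (7.6%), as for 15.5% of all genes. Of the 33 ligands tested 18 were lower and 4 higher, and of the 33 receptors 13 were lower and 2 higher. Of the 37 members called, 25 that were lower and 5 that were higher passed in all 8 fits that left out a single litter.

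**Figure D1:**
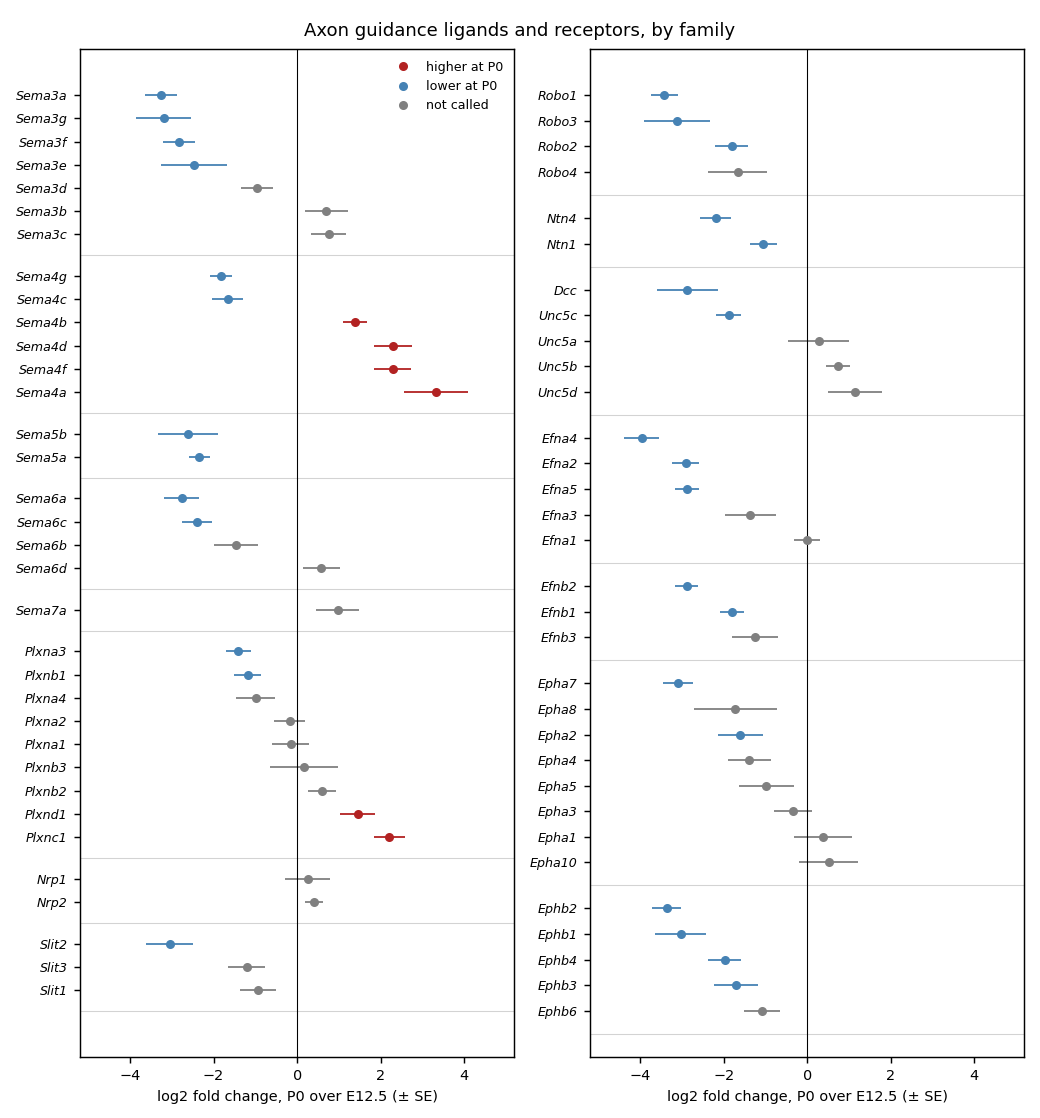
Log2 fold change of each of the 66 members tested, P0 over E12.5, with its standard error, grouped by family and ordered within a family. Blue points are the 31 members called lower at P0, red points the 6 called higher and gray points the 29 not called, and the red points are all class 4 semaphorins or plexins.

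Summed per kilobase of exon (CPM per kilobase), all members together stood at 486 ± 55.5 (SD, n = 4) at E12.5 and 306 ± 33.9 at P0. The P0 sum was below every E12.5 litter in 9 of the 15 families, above every one in class 4 semaphorins only, and overlapped in 5. Plexins carried the highest summed level at both stages, 87.9 ± 18.5 and 108 ± 30.1 CPM per kilobase. Ephrin A genes came next at E12.5 with 59.1 ± 2.39 and stood at 12.7 ± 2.95 at P0. Class 4 semaphorins went the other way, from 17.9 ± 2.59 to 36.9 ± 16.7 CPM per kilobase.

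**Figure D2:**
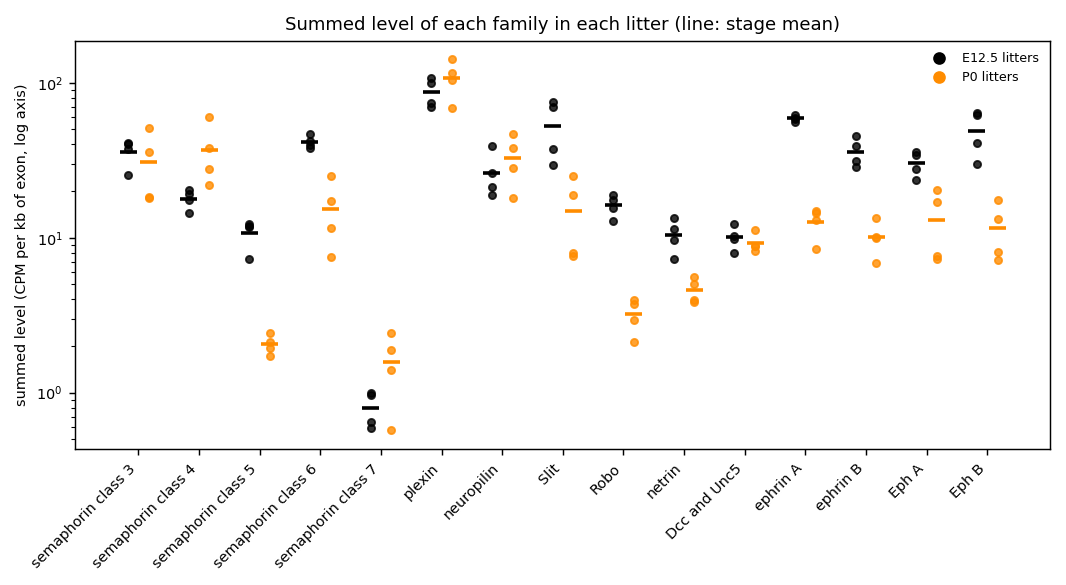
Summed level of each family in CPM per kilobase of exon on a log axis, with a point for each litter and a line at the stage mean. The ephrin A sums lie between 56.3 and 62.1 in the E12.5 litters and between 8.45 and 14.9 in the P0 litters, and the plexin sums of both stages overlap.

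Slits are large secreted proteins that bind Robo receptors, and 1 of 3 Slits and 3 of 4 Robo receptors were called lower at P0. Slit2 was at 1010, 1130, 370 and 396 CPM in the E12.5 litters and at 37.6, 46.0, 118 and 148 CPM in the P0 litters. No P0 litter reached the E12.5 range, although each stage split into a higher and a lower pair of litters. The log2 fold change was -3.05 ± 0.56 (SE, adjusted p = 0.00315). Shh, which the notochord secretes, showed a like order among the E12.5 litters, at 1100, 1350, 420 and 494 CPM, and was at 0.157, 3.89, 7.89 and 11.8 CPM in the P0 litters. Slit3 stood at 117, 94.8, 65.5 and 87.8 CPM at E12.5 and at 15.3, 21.8, 47.8 and 73.2 CPM at P0, where NPD30 overlapped the E12.5 litters. It was not called, with a log2 fold change of -1.21 ± 0.44 and an adjusted p of 0.0669, but passed without NPD30, at -1.73 and an adjusted p of 0.00576. Slit1, at 25.4 to 97.2 CPM and 15 to 41.5 CPM, was not called (-0.94 ± 0.44, adjusted p = 0.135), and passed without NPD4, at -1.19 and an adjusted p of 0.047. Per kilobase, Slit2 made up 51.8% ± 9.29 of the family sum at E12.5 and 22.5% ± 2.15 at P0, when Slit3 held 42.2% ± 6.59.

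Robo1 was at 106, 97.8, 94.9 and 126 CPM at E12.5 and at 5.82, 16.4, 7.77 and 9.40 CPM at P0. The stages stood far apart and the log2 fold change was -3.42 ± 0.33 (adjusted p = 0.000127). Robo2 was at 64.4, 179, 168 and 79.4 CPM at E12.5 and at 31.0, 27.1, 26.5 and 55.3 CPM at P0, a log2 fold change of -1.81 ± 0.39 (adjusted p = 0.00593). NPD30 was the highest P0 litter for Robo2 and still lay under all E12.5 litters. Robo3, which modulates the Slit response of crossing axons, was at 11.8, 9.37, 1.81 and 13.8 CPM at E12.5 and at 2.20, 1.44, 0.235 and 0.303 CPM at P0. NPD4 fell within the P0 range, and the log2 fold change was -3.12 ± 0.80 (adjusted p = 0.014). Robo4, known from endothelium, lies on the other strand of chromosome 9 with its 3′ end 553 bases from that of Robo3. It was at 4.95 to 8.46 CPM against 0.353 to 4.90 CPM, and was not called (-1.67 ± 0.70, adjusted p = 0.1). It passed without NPD27, the highest P0 litter, at -2.57 and an adjusted p of 0.0225. A list of 10 endothelial genes summed to 101 to 196 CPM at E12.5 and 39.7 to 139 CPM at P0. Robo2 had the highest Robo level per kilobase at both stages, 7.23 ± 3.48 and 2.06 ± 0.808.

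**Figure D3:**
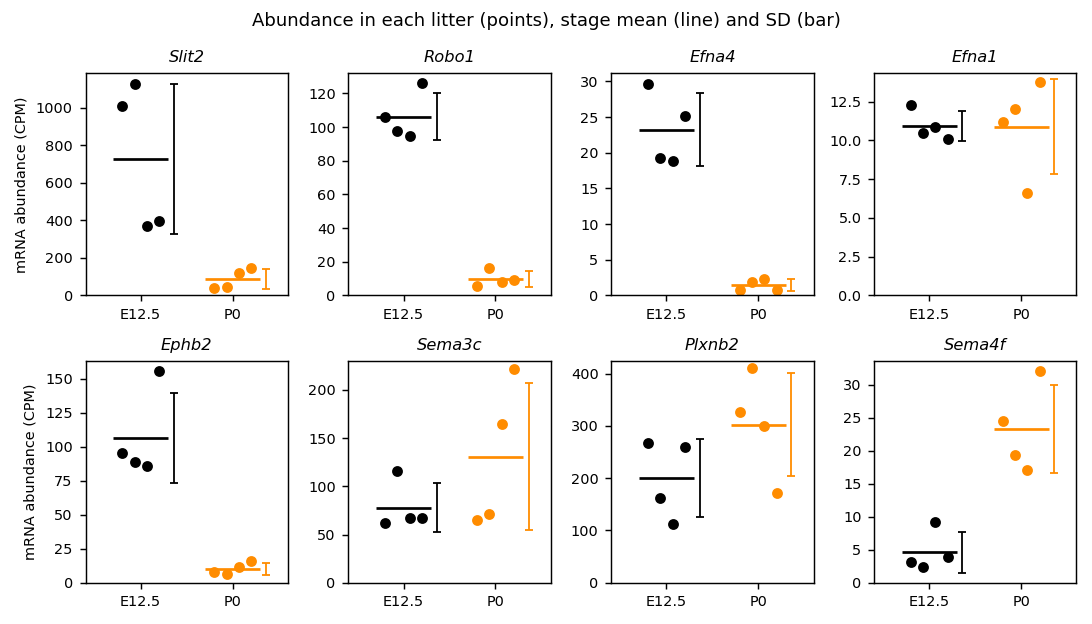
Abundance in CPM of 8 members, with a point for each litter, a line at the stage mean and a bar of 1 SD. Slit2, Robo1, Efna4 and Ephb2 show no P0 litter within the E12.5 range, Efna1 and Sema3c and Plxnb2 overlap between stages, and Sema4f lies higher in all P0 litters.

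Ephrin A ligands, which are tethered to the membrane by a lipid anchor, showed the largest single difference of all members, in Efna4. It was at 29.7, 19.3, 18.9 and 25.1 CPM at E12.5 and at 0.786, 1.87, 2.35 and 0.758 CPM at P0, and the P0 values came from 5, 13, 20 and 5 counts, each above the floor of 3 counts. The log2 fold change was -3.97 ± 0.43 (adjusted p = 0.000219). Of the Efna4 exon bases, 10.5% overlap another gene, 4731419I09Rik, and the strand setting of the counting is not given in the sources used here. Efna2 was at 46.7, 32.6, 34.6 and 40.1 CPM at E12.5 and at 5.82, 6.06, 2.71 and 5.91 CPM at P0 (log2 fold change -2.91 ± 0.32, adjusted p = 0.000216). Efna5 was at 44.1, 81.2, 83.8 and 78.7 CPM and then at 9.44, 10.1, 6.95 and 12.4 CPM (-2.89 ± 0.29, adjusted p = 0.000149). For both genes every P0 litter lay well under the lowest E12.5 litter.

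Efna1 differed from its family. It was at 12.3, 10.5, 10.9 and 10.1 CPM at E12.5 and at 11.2, 12, 6.59 and 13.8 CPM at P0, and the stages overlapped throughout. The log2 fold change of -0.01 ± 0.31 (adjusted p = 0.984) was not called. Efna1, Efna3 and Efna4 lie in a row on the minus strand of chromosome 3, with 32756 bases between Efna1 and Efna3 and 10424 bases between Efna3 and Efna4. Efna3 was at 1.65 to 11 CPM and 0.942 to 3.62 CPM (-1.36 ± 0.61, adjusted p = 0.12). It passed without NDP10.2, its lowest E12.5 litter, at -1.71 and an adjusted p of 0.0393. Per kilobase, Efna1 made up 10.1% ± 1.04 of the ephrin A sum at E12.5 and 46.2% ± 3.27 at P0, the share of Efna2 went from 30.5% ± 4.71 to 18.5% ± 2.49, and that of Efna4 from 24.5% ± 5.21 to 8.11% ± 6.58. With the level of Efna1 near 6 CPM per kilobase at both stages (5.98 ± 0.515 and 5.95 ± 1.67), these shares follow from the lower levels of the others.

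Ephrin B ligands span the membrane and can signal in reverse. Efnb2, also known as a marker of arterial endothelium, was at 45.1, 66.5, 62.3 and 61.0 CPM at E12.5 and at 9.91, 7.64, 5.18 and 9.10 CPM at P0. It had the smallest adjusted p of all members (0.000112), with a log2 fold change of -2.89 ± 0.27. Efnb1 was at 97.9, 43.9, 57.7 and 69.6 CPM and at 16.5, 18.9, 17.9 and 23.8 CPM (-1.80 ± 0.28, adjusted p = 0.00116). For both genes the stages did not overlap, and Efnb1 was the highest ephrin B per kilobase at both (19.5 ± 6.65 and 5.58 ± 0.919). Efnb3 was at 17.5 to 32.3 CPM and 2.94 to 23.3 CPM and was not called (-1.25 ± 0.55, adjusted p = 0.121). It passed without NPD26, at -1.95 and an adjusted p of 0.017.

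Among Eph receptors, 4 of 5 EphB and 2 of 8 tested EphA genes were lower at P0. Ephb2 was at 95.1, 89.0, 85.7 and 156 CPM at E12.5 and at 7.55, 6.49, 11.3 and 15.8 CPM at P0 (log2 fold change -3.37 ± 0.35, adjusted p = 0.000168). Ephb1 was at 61.3, 34.0, 17.3 and 22.6 CPM and at 5.66, 7.64, 1.18 and 2.12 CPM (-3.03 ± 0.61, adjusted p = 0.00465). Ephb4, the usual receptor of ephrin B2 in vein endothelium, was at 150, 88.4, 66.5 and 139 CPM and at 16.2, 16.6, 33.8 and 45.8 CPM (-1.98 ± 0.40, adjusted p = 0.00443). None of the 3 overlapped between stages, and Ephb4 had the highest level per kilobase of any Eph receptor at both stages (23.9 ± 8.61 and 6.05 ± 3.10). Ephb4 and Ephb1 differed in their P0 order, since NPD28 and NPD30 were high for Ephb4 and low for Ephb1. Ephb3 was at 32.0 to 80.2 CPM and 5.19 to 34.0 CPM, with NPD30 above NPD4. Its call (-1.71 ± 0.53, adjusted p = 0.0369) was lost when NDP10.2, NPD3, NPD9.2, NPD26 or NPD28 was left out, with adjusted p from 0.0504 to 0.0981. Ephb6, whose kinase domain is inactive, was at 5.66 to 15 CPM and 3.34 to 5.82 CPM and was not called (-1.08 ± 0.43, adjusted p = 0.086).

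Epha7 was at 52.4, 67.9, 77.2 and 49.9 CPM at E12.5 and at 12.6, 5.48, 4.24 and 6.67 CPM at P0, with no overlap (log2 fold change -3.10 ± 0.36, adjusted p = 0.000289). Epha2 was at 25.0, 11.1, 6.53 and 16.2 CPM and at 2.20, 3.17, 9.54 and 4.24 CPM. NPD28 lay above NPD4, and the call (-1.60 ± 0.54, adjusted p = 0.0468) was lost without NDP10.2, NPD3, NPD9.2, NPD26, NPD27 or NPD30, with adjusted p from 0.0598 to 0.125. Epha4, the highest EphA gene per kilobase at both stages (12.7 ± 5.25 and 4.86 ± 3.44), binds ephrins of both classes. It was at 127, 145, 50.2 and 87.5 CPM and at 14.5, 19.3, 48.9 and 73.8 CPM and was not called (-1.39 ± 0.52, adjusted p = 0.073). NPD30 lay above the E12.5 litter NPD4. Epha4 passed without NPD4, at -1.62 and an adjusted p of 0.0458, and without NPD30, at -1.93 and an adjusted p of 0.0121. Epha8 was not called (-1.72 ± 0.99, adjusted p = 0.226) but passed without NPD3, its E12.5 litter at 0 counts, at -2.18 and an adjusted p of 0.0448. The other EphA genes tested, Epha1, Epha3, Epha5 and Epha10, were not called, with adjusted p from 0.297 to 0.73. Epha6 stayed at 0 to 2.31 CPM and was not tested.

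Netrins are laminin-like secreted proteins, and both members tested were lower at P0. Ntn4 was at 13.9, 9.37, 13.1 and 8.61 CPM at E12.5 and at 2.52, 2.31, 2.00 and 3.03 CPM at P0, a log2 fold change of -2.19 ± 0.37 (adjusted p = 0.00178) with no overlap. Ntn1, which the floor plate is known to secrete, was at 61.6, 45.1, 23.5 and 57.0 CPM and at 29.6, 14.4, 21.3 and 25.0 CPM. NPD26 and NPD30 lay above the E12.5 litter NPD4, and the call (-1.05 ± 0.33, adjusted p = 0.0371) was lost without NDP10.2, NPD3, NPD9.2, NPD27 or NPD28, with adjusted p from 0.063 to 0.0969. Ntn1 was the higher netrin per kilobase at both stages (7.45 ± 2.71 and 3.60 ± 1.02). Ntn5 had at most 14 counts in a litter and was not tested.

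The netrin receptors divided. Dcc was at 14.2, 11.3, 8.10 and 21.6 CPM at E12.5 and at 3.62, 2.88, 0.118 and 0.910 CPM at P0 (log2 fold change -2.88 ± 0.73, adjusted p = 0.0134). Unc5c was at 74.3, 100, 71.2 and 63.9 CPM and at 10.9, 23.2, 21.8 and 28.2 CPM (-1.88 ± 0.30, adjusted p = 0.00146). Neither overlapped between stages. Unc5b, at 20.3, 18.9, 18 and 33.7 CPM and then 30.2, 28.3, 39.4 and 52.6 CPM, was not called (0.73 ± 0.29, adjusted p = 0.0876) and passed as higher without NPD9.2, at 0.95 and an adjusted p of 0.043. Unc5a and Unc5d were not called, with adjusted p of 0.817 and 0.225. Per kilobase, Unc5c held 41.2% ± 11.4 of the Dcc and Unc5 sum at E12.5 and 11.6% ± 3.17 at P0, and Unc5b 35.5% ± 5.99 and 63.9% ± 11.2, while the sum itself was 10.1 ± 1.78 and 9.29 ± 1.32.

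Class 3 semaphorins are secreted and most bind neuropilins, and 4 of 7 were lower at P0. Sema3a was at 28.8, 42.3, 33.4 and 55.6 CPM at E12.5 and at 4.25, 6.20, 1.88 and 4.40 CPM at P0 (log2 fold change -3.26 ± 0.39, adjusted p = 0.000323). Sema3f was at 60.9, 33.4, 28.2 and 59.5 CPM and at 9.44, 6.63, 3.30 and 6.22 CPM (-2.83 ± 0.39, adjusted p = 0.000642). Sema3g, the class 3 member with the lowest level per kilobase at P0, was at 9.67, 2.73, 6.77 and 17.5 CPM and at 1.57, 1.30, 0.589 and 0.455 CPM (-3.20 ± 0.66, adjusted p = 0.00457). The stages did not overlap for these genes. Sema3e, at 10.2 to 18 CPM and 0 to 4.87 CPM, did not overlap either, but its call (-2.48 ± 0.79, adjusted p = 0.0391) was lost without NDP10.2, NPD3, NPD9.2, NPD27 or NPD30, with adjusted p from 0.0663 to 0.0874.

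Sema3c was the highest class 3 member per kilobase at both stages, 10.9 ± 3.57 and 18.3 ± 10.6. Its litters were at 62.3, 116, 66.9 and 66.9 CPM at E12.5 and at 64.6, 71.8, 165 and 222 CPM at P0. NPD28 and NPD30 lay above all E12.5 litters and the other P0 litters lay within them, so that the log2 fold change of 0.75 ± 0.41 (adjusted p = 0.203) was not called. Its share of the class 3 sum was 30.9% ± 9.26 at E12.5 and 57.5% ± 6.62 at P0. Sema3b, at 9.19 to 36.1 CPM and 16.3 to 67.9 CPM, was not called (0.70 ± 0.51, adjusted p = 0.351). Sema3d, at 29.5 to 66.5 CPM and 13.8 to 37.8 CPM, was not called either (-0.96 ± 0.38, adjusted p = 0.0852), and passed without NPD30, at -1.42 and an adjusted p of 0.00869.

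All 6 class 4 semaphorins, which span the membrane, were called, 4 higher and 2 lower at P0. Sema4d, known from T cells and from osteoclasts, was at 19.1, 14.4, 34.8 and 16.0 CPM at E12.5 and at 73.4, 121, 176 and 44.6 CPM at P0 (log2 fold change 2.29 ± 0.45, adjusted p = 0.00388). Sema4a was at 6.13, 1.95, 4.96 and 2.95 CPM and at 16.0, 27.7, 107 and 10.3 CPM (3.32 ± 0.76, adjusted p = 0.00898). Without NPD28, which was far above the other P0 litters, its log2 fold change was 2.17 and it still passed, whereas limma-voom left it at an adjusted p of 0.0556 and edgeR without a filter at 0.0578. Sema4b was at 14.7 to 19.8 CPM and 27.1 to 61.7 CPM (1.39 ± 0.29, adjusted p = 0.00474). For these 3 genes all P0 litters lay above E12.5 and NPD30 was the lowest of them.

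Sema4f ran in another order. It was at 3.07, 2.34, 9.19 and 3.93 CPM at E12.5 and at 24.5, 19.3, 17.1 and 32.1 CPM at P0 (log2 fold change 2.29 ± 0.44, adjusted p = 0.00358), and NPD30 was its highest P0 litter. The neural genes had part of this order, with NPD4 the highest E12.5 litter of both and NPD28 the lowest P0 litter of both. Their highest P0 litter was NPD26 (1180 CPM). The notochord and NP sum (31800 CPM) and the osteoblast sum (1870 CPM) were, like Sema4f, highest in NPD30. Unlike Sema4f, both were lowest in NPD4 among the E12.5 litters. The part of these genes in this result was not tested. The members with lower abundance were Sema4g, at 48.8, 42.5, 41.2 and 50.4 CPM and then 10.4, 9.81, 12.5 and 18.8 CPM (-1.83 ± 0.26, adjusted p = 0.000812), and Sema4c, at 32.6, 16.4, 13.1 and 30.7 CPM and then 9.12, 7.93, 7.06 and 5.15 CPM (-1.66 ± 0.37, adjusted p = 0.00669). Neither overlapped between stages. Of the Sema4c exon bases, 7.3% overlap another gene. Sema4g had the highest level of the class per kilobase at E12.5 (5.28 ± 0.525) and Sema4d at P0 (13.5 ± 7.48).

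Plexins are the receptors of semaphorins, and 2 of 9 were higher and 2 lower at P0. Plxnc1, which binds Sema7a, was at 16.3, 12.5, 19.6 and 16.7 CPM at E12.5 and at 64.0, 86.8, 118 and 31.2 CPM at P0 (log2 fold change 2.20 ± 0.37, adjusted p = 0.00184). No litter overlapped. Plxnd1, a receptor for Sema3e known from vessels, was at 78.3, 41.4, 73.9 and 102 CPM and at 212, 302, 223 and 68.2 CPM. NPD30 lay within the E12.5 range, and the call (1.45 ± 0.42, adjusted p = 0.0268) was lost when any litter but NPD9.2 or NPD30 was left out, with adjusted p from 0.051 to 0.0784. Plxna3 was at 70.3, 54.4, 85.7 and 70.1 CPM and at 17.3, 18.7, 29.7 and 39.7 CPM (-1.41 ± 0.30, adjusted p = 0.00543). Plxnb1, the receptor of Sema4d, was at 157, 115, 95.3 and 126 CPM and at 31.0, 38.6, 59.0 and 87.3 CPM (-1.19 ± 0.33, adjusted p = 0.0198). Neither overlapped, but the Plxnb1 call was lost without NDP10.2 (adjusted p = 0.0509) or NPD27 (adjusted p = 0.0569).

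The leukocyte genes were also higher at P0, and 5 of the 6 members that were higher shared with them the lowest P0 litter, NPD30. Sema4f did not, being highest in NPD30 and lowest in NPD28. How often genes higher at P0 were lowest in NPD30 was not counted over all genes. Over all genes tested, NPD30 was also the P0 litter that correlated most with the E12.5 litters (0.74 to 0.771). The leukocyte sum was at 3420, 4100, 4250 and 376 CPM in the P0 litters. Of these genes, 12 of 12 were called higher, against 16.0% of all genes tested. Ptprc, which encodes the pan-leukocyte antigen CD45, was at 3.12 to 5.16 CPM at E12.5 and at 175, 250, 568 and 50.5 CPM at P0. In NPD30, Sema4a, Sema4b, Sema4d, Sema4f and Plxnc1 still lay above every E12.5 litter, while Plxnd1 did not. What the leukocyte genes contribute to these differences was not tested.

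**Figure D4:**
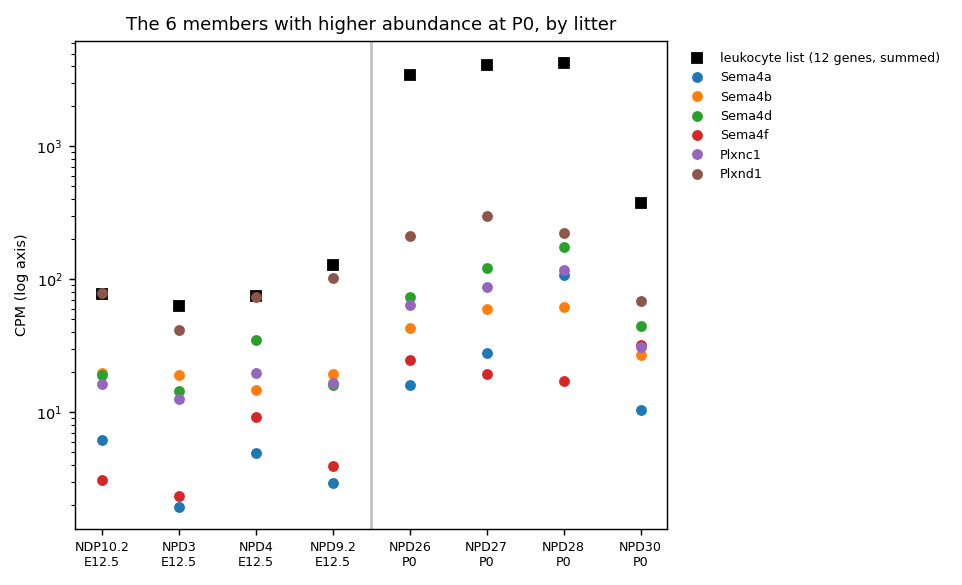
Abundance in CPM on a log axis of the 6 members with higher abundance at P0 (circles) and of 12 leukocyte genes summed (squares), in the 4 E12.5 litters on the left and the 4 P0 litters on the right. NPD30 has the lowest P0 value of the leukocyte sum (376) and of 5 of the 6 members, and the highest P0 value of Sema4f (32.1). This order was not counted over all genes.

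Plxnb2 was the most abundant plexin per kilobase at both stages, 25.9 ± 9.75 and 39.1 ± 12.8. It was at 267, 162, 113 and 259 CPM at E12.5 and at 327, 410, 299 and 172 CPM at P0, with NPD30 inside the E12.5 range, and was not called (log2 fold change 0.59 ± 0.34, adjusted p = 0.229). Plxna1, Plxna2, Plxna4 and Plxnb3 were not called either (log2 fold changes from -0.99 to 0.16, adjusted p from 0.149 to 0.906). Plxna4 reached 155 CPM in NPD4, the litter with the high neural genes, against 30.8 to 85.1 CPM in the other E12.5 litters. Nrp1, the higher neuropilin per kilobase at both stages (15.7 ± 9.19 and 18.7 ± 11.5), was at 89.9, 88.6, 280 and 157 CPM and at 266, 288, 124 and 54.4 CPM. NPD4 was again the highest E12.5 litter, and the stages overlapped throughout (0.25 ± 0.54, adjusted p = 0.769). Nrp2 was at 115 to 146 CPM and 131 to 206 CPM and was not called (0.41 ± 0.22, adjusted p = 0.196).

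Class 5 and class 6 semaphorins are also membrane proteins. Sema5a was at 193, 192, 126 and 147 CPM at E12.5 and at 25.6, 30.7, 30.8 and 41.8 CPM at P0 (log2 fold change -2.35 ± 0.25, adjusted p = 0.000192). Sema5b was at 11.3, 10.1, 3.99 and 31.2 CPM and at 3.93, 3.32, 0.589 and 1.36 CPM. The stages of Sema5b met without overlap, at NPD4 and NPD26, and its call (-2.62 ± 0.72, adjusted p = 0.02) was lost without NPD9.2, at an adjusted p of 0.0691. Sema6a, the semaphorin with the highest level per kilobase at E12.5 (27.9 ± 2.24), was at 257, 244, 260 and 217 CPM and at 44.0, 65.2, 16.5 and 18 CPM (-2.77 ± 0.43, adjusted p = 0.00123). Sema6c was at 42.9, 18.9, 22.1 and 41.6 CPM and at 6.92, 5.34, 4.71 and 6.82 CPM (-2.40 ± 0.35, adjusted p = 0.000827). The E12.5 litters of both lay above all P0 litters.

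At P0 Sema6d was the class 6 member with the highest level per kilobase (9.46 ± 4.90). It was at 39.6, 59.9, 123 and 43.8 CPM at E12.5 and at 105, 167, 84.5 and 42.9 CPM at P0 and was not called (log2 fold change 0.58 ± 0.45, adjusted p = 0.376). Per kilobase, Sema6d made up 14.7% ± 7.09 of the class sum at E12.5 and 60.9% ± 6.59 at P0, and Sema6a 67.1% ± 5.46 and 25.6% ± 6.32. Sema6b did not overlap between stages, at 5.07 to 15.5 CPM and 1.06 to 4.40 CPM, yet was not called (-1.47 ± 0.52, adjusted p = 0.0576). Sema7a, the lipid-anchored ligand of Plxnc1, stayed low at 2.12, 1.95, 3.26 and 3.20 CPM and 1.89, 4.61, 8 and 6.22 CPM (0.97 ± 0.51, adjusted p = 0.189).

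The P0 litters were not alike in the members with lower abundance at P0. NPD30 was the highest P0 litter for 13 of these 31 and NPD26 for 11, and NPD28 was the lowest for 15. Those highest in NPD30 were Slit2, Robo2, Ntn4, Unc5c, Efna5, Efnb1, Ephb2, Ephb3, Ephb4, Plxna3, Plxnb1, Sema4g and Sema5a. Such tallies were not made over all genes. Over all genes tested, log2 CPM of NPD30 correlated with that of the E12.5 litters at 0.74 to 0.771. For the other P0 litters these correlations were 0.647 to 0.703. The notochord gene T was also highest in NPD30, at 2320 CPM, and a link to the tally was not tested. At E12.5, NDP10.2 was the highest litter for 14 of the 31 and NPD4 the lowest for 18. Sclerotome and neural crest genes were also lower at P0, with 8 of 8 and 6 of 7 called, against 12.0% of all genes tested. The part of these marker genes in the results was not tested.

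Other genes of the guidance pathways, co-receptors and intracellular partners among them, are given for comparison. Of 60 such genes, all tested, 15 (25.0%) were lower, 6 higher and 39 not called, with a median log2 fold change of -0.06. Of all genes tested, 12.0% were lower, a smaller share than here, and 16.0% higher, a larger share than here. Flrt2, a membrane ligand of Unc5 receptors, was at 141, 250, 163 and 171 CPM at E12.5 and at 20.6, 27.7, 25.0 and 40.5 CPM at P0 (-2.67 ± 0.29, adjusted p = 0.000212). Dpysl4, a protein of the collapsin response mediator family, and Flrt1 had log2 fold changes of -2.66 ± 0.52 and -2.37 ± 0.43 (adjusted p of 0.00388 and 0.00266). Ngef, the ephexin that acts below EphA receptors, was at 1.42, 1.17, 1.09 and 3.44 CPM and at 14.2, 10.5, 34.6 and 43.2 CPM (3.88 ± 0.58, adjusted p = 0.00101). Vav3 and Pak3 had log2 fold changes of 2.21 ± 0.54 and 1.85 ± 0.39 (adjusted p of 0.0121 and 0.00539), and Vav3 overlapped between stages through NPD30 at 6.97 CPM.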

How the data were processed

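RNA-Seq of 8 samples, 4 litters at each of 2 stages, was analysed. The authors aligned reads to GRCm38 with STAR 2.4.0j, tallied them per Gencode M4 gene with htseq-count and deposited the unscaled counts. The strand setting and the use of the mm9 build that the submitters' processing notes also list are not given in the sources used here. Symbols, positions and exon lengths come from Gencode M21, which matched 42462 of 43346 identifiers. The members and gene lists were chosen with earlier results of these data known.

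Counts were tested in R 4.3.3 with edgeR 4.0.16 (TMM, filterByExpr with a minimum count of 10 and total of 15, robust quasi-likelihood F-test, Benjamini-Hochberg adjustment over 15467 genes). A call is an adjusted p under 0.05. The standard error is the log2 fold change over the square root of F. CPM uses TMM library sizes, and CPM per kilobase divides by exon length. Marker and pathway lists were summed in CPM. Counts of members cover only those past the filter, and 16 of them had under 10 counts in at least 1 litter. Full values are given for up to 3 called members per direction and family with a mean of at least 1 CPM, and for the member with the highest level per kilobase at each stage. Alternatives were DESeq2 1.42.0, limma 3.58.1 (voom), 2 other scalings, other filters, a fold change over 2 and each litter left out. Floors cover counting error only. Replicate numbers were given in accession order and pair no samples.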

Additional observations from a re-analysis of the deposited data

Results flagged for a closer look

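Of 132 groups of 4 litters examined for a litter that stands apart (Dixon's ratio over 0.829 on log2 of CPM plus 1), 6 were picked out, and chance picks about 1 in 20. Sema3c was at 116 CPM in the E12.5 litter NPD3 and at 62.3 to 66.9 CPM in the others. Sema4b was at 14.7 CPM in the E12.5 litter NPD4 and at 18.9 to 19.8 CPM in the others. Sema6b was at 1.06 CPM in the P0 litter NPD30 and at 3.61 to 4.40 CPM in the others. Unc5d was at 0.236 CPM, from a single count, in the E12.5 litter NDP10.2 and at 4.23 to 5.90 CPM in the others. Efna2 was at 2.71 CPM in the P0 litter NPD28 and at 5.82 to 6.06 CPM in the others. Efna5 was at 44.1 CPM in the E12.5 litter NDP10.2 and at 78.7 to 83.8 CPM in the others.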

How the results depend on the processing

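The members with lower abundance at P0 numbered 25 to 35 and those with higher abundance 5 to 7 under every alternative named at the start, and with a single litter left out 26 to 33 and 5 to 7. The other pathway genes numbered 10 to 14 lower and 4 to 7 higher with a litter left out. Alternatives added after seeing the data gave fewer calls from fewer samples. With the E12.5 litters NDP10.2 and NPD9.2 both left out, 20 members were lower and 2 higher, 7 other pathway genes were lower and 3 higher, and 2581 of all genes were called against 4321, and Plxna1 (0.25) and Nrp1 (-0.05) changed sign. With NPD30, picked for its low leukocyte sum, as the lone P0 litter and assumed to vary like the E12.5 litters, 1054 of all genes were called, 15 members were lower and 2 higher, 2 other pathway genes were lower and 3 higher, and the log2 fold changes of Sema6d (-0.61), Plxna2 (0.77), Plxnb2 (-0.16), Plxnb3 (-2.22), Plxnd1 (-0.07), Nrp1 (-1.47), Unc5a (-1.06), Efna1 (0.38), Epha1 (-0.49) and Epha3 (0.68) changed sign. Among these Plxnd1 alone was called in the full design. A fit with 1 P0 litter describes that litter and not the stage. Efna1 was at 0.01 with at least 10 counts in every sample and Epha1 at -0.18 by limma-voom. The cause was not tested. With a single litter left out, uncalled members that crossed 0 ranged from -0.53 to 0.10 (Plxna1), -0.72 to 0.03 (Plxna2), -0.55 to 1.20 (Plxnb3), -0.05 to 0.70 (Nrp1), -0.19 to 0.93 (Unc5a), -0.18 to 0.18 (Efna1) and -0.82 to 0.74 (Epha1). Upper quartile scaling moved the median of all genes from 0.04 to -0.11. DESeq2 called Sema6b, Slit3, Epha4 and Ephb6 lower in addition, and upper quartile scaling Sema6b and Slit3. limma-voom left Sema4a, Sema5b, Robo3, Ntn1 and Epha2 uncalled and called Slit3, Robo4, Efnb3 and Epha4 lower in addition. edgeR without a filter left Sema4a and Ephb3 uncalled and called Sema3d, Sema6b and Robo4 lower in addition. No paired analysis was made because each sample pooled a different litter and nothing pairs litters across the stages. Depth limits members near 3 counts, such as Sema3g, Robo3 and Dcc at P0.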
